A study of Mus musculus with 12 samples.

Results

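The 42 genes described here code for collagens, for glycoproteins and proteoglycans of the extracellular matrix, and for the enzymes and the chaperone that assemble collagen. They were taken as a list of named genes, by a rule that uses no measured value, although the list was drawn up with earlier results of these data known, and all 42 were found among the 21743 genes of the table. The data were single-cell transcriptomes from Drop-seq, a droplet method that counts unique molecular identifiers (UMIs) near the 3′ end of each transcript. The 4 groups came from 2 tumor-bearing mice, with gland MG1 with tumor MT1 from one mouse and gland MG2 with tumor MT2 from the other. The glands were the fourth mammary pair, and cell suspensions of both tissues had been depleted of hematopoietic and endothelial cells to enrich the epithelium. Every mouse carried MMTV-Cre and Brca1flox/flox on a background labelled C57BL/6 and 129/Sv mixed, so the glands were Brca1-deficient as well and no Brca1 wild-type group exists in these data. MMTV-Cre is a transgene whose mouse mammary tumor virus promoter acts mainly in mammary epithelium, so the stromal cells of the same tissues need not have lost Brca1. The labels give no age. With 1 tumor and 1 gland per mouse, the replicate libraries of a group measure the spread between libraries of the same tissue and not between animals.

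The 12 libraries (2 of MG1, 2 of MG2, 5 of MT1 and 3 of MT2) held 105 to 4874 cells each, 21157 in all, with totals from 693333 to 14841414 UMIs and a median per cell from 1784 to 4842. MG1 replicate 2 was the small library, with 105 cells. Pairs of libraries shared 0 to 7 cell barcodes. Cells were clustered with the matrix genes left out and named from markers, which gave 656 epithelial cells in MG1, 2065 in MG2, 6022 Epcam-positive and 1340 Cav1-high tumor cells in MT1, and 9799 tumor cells in MT2. Fibroblast-like cells numbered 132, 133, 46 and 208 and endothelial-like cells 18, 84, 58 and 31 in MG1, MG2, MT1 and MT2. Another 59 stromal cells of MT1 are called Acta2-high stromal. Of 10 mural markers, 4 were raised enough to count toward a name and 8 had a UMI, with Des and Kcnj8 at 0. Of the fibroblast-like cells of MG1, 100 fell in a sub-cluster whose leading genes were the immunoglobulin genes Igkc, Ighg2b, Ighg2c and Ighm. In the MT2 tumor cells the 9 epithelial markers summed to 765 CPM (UMIs per 1000000 UMIs of the class in a library), against 12786 in MG2 epithelium and 9931 in the MT1 Epcam-positive cells, and the 14 fibroblast markers to 548 CPM, against 1468 in the MT2 fibroblast-like cells. Tcf21 and Fap of that fibroblast list were at 0 in the MT2 tumor cells, and the endothelial list summed to 6.30 CPM. These cells were therefore called by their cluster and not as epithelium. Brca1 itself had 0 UMIs in MG1 epithelium, 17 in MG2 epithelium (2.20 CPM), and 10.7, 8.40 and 10.0 CPM in the MT1 Epcam-positive, MT1 Cav1-high and MT2 tumor cells. Counts at the 3′ end do not read an internal floxed exon and so do not check the deletion.

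The extracellular matrix is the protein network that cells secrete around themselves. Fibrillar collagens form the tensile fibers of connective tissue and are made mainly by fibroblasts, while laminins, nidogens and type IV collagen build the basement membrane, the thin sheet that lies under epithelia and around blood vessels. Fibronectin and the matricellular glycoproteins link cells to these networks, the small proteoglycans coat collagen fibrils, and lysyl oxidases cross-link them. In the mammary gland, basal cells rest on the basement membrane and luminal cells sit above them. Mammary tumors often carry a dense collagen-rich stroma.

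Over all 42 genes together, matrix transcripts took 0.269 to 0.314% of the UMIs of MG1 epithelium, 0.397 to 0.436% in MG2 epithelium and 0.325 to 0.383% in the MT1 Epcam-positive cells. The share was 0.667 to 0.863% in the Cav1-high cells and 1.63 to 1.83% in the MT2 tumor cells, so both lay above every library of gland epithelium taken whole. The basal-like cells of MG2 alone were at 0.577 and 0.709%, the latter within the Cav1-high range. Fibroblast-like cells of the tumors spent more still on these genes, 7.25 to 10.4% in MT1 and 8.58 to 10.2% in MT2, and the Acta2-high stromal cells 8.14 to 9.46%. All of these are ranges over libraries.

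Each tumor class was tested against the gland epithelium of the same mouse with edgeR's quasi-likelihood test on counts summed per library, adjusted by Benjamini-Hochberg over all 12986 genes tested. Nid2, a nidogen at under 4 CPM in every gland library, did not pass the filter on low counts, which left 41 of the 42 genes. In the MT1 Epcam-positive cells 10 rose, 19 fell and 12 did not pass an adjusted p of 0.05 (59.5% of all genes passed), and the 29 calls fell to 19 without MG1 replicate 1. In the MT1 Cav1-high cells 20 rose, 14 fell and 7 did not pass (60.7% of all genes). In the MT2 tumor cells 31 rose, 9 fell and only Lamb3 did not pass (68.4% of all genes). The median log2 fold change of the 41 was -0.48, 0.67 and 3.66 in these 3 comparisons, beside 0.04, -0.04 and -0.07 over all genes tested. So many genes passed in each comparison that the number passing says little by itself, and the direction and size differed between the tumor classes.

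**Figure D1:**
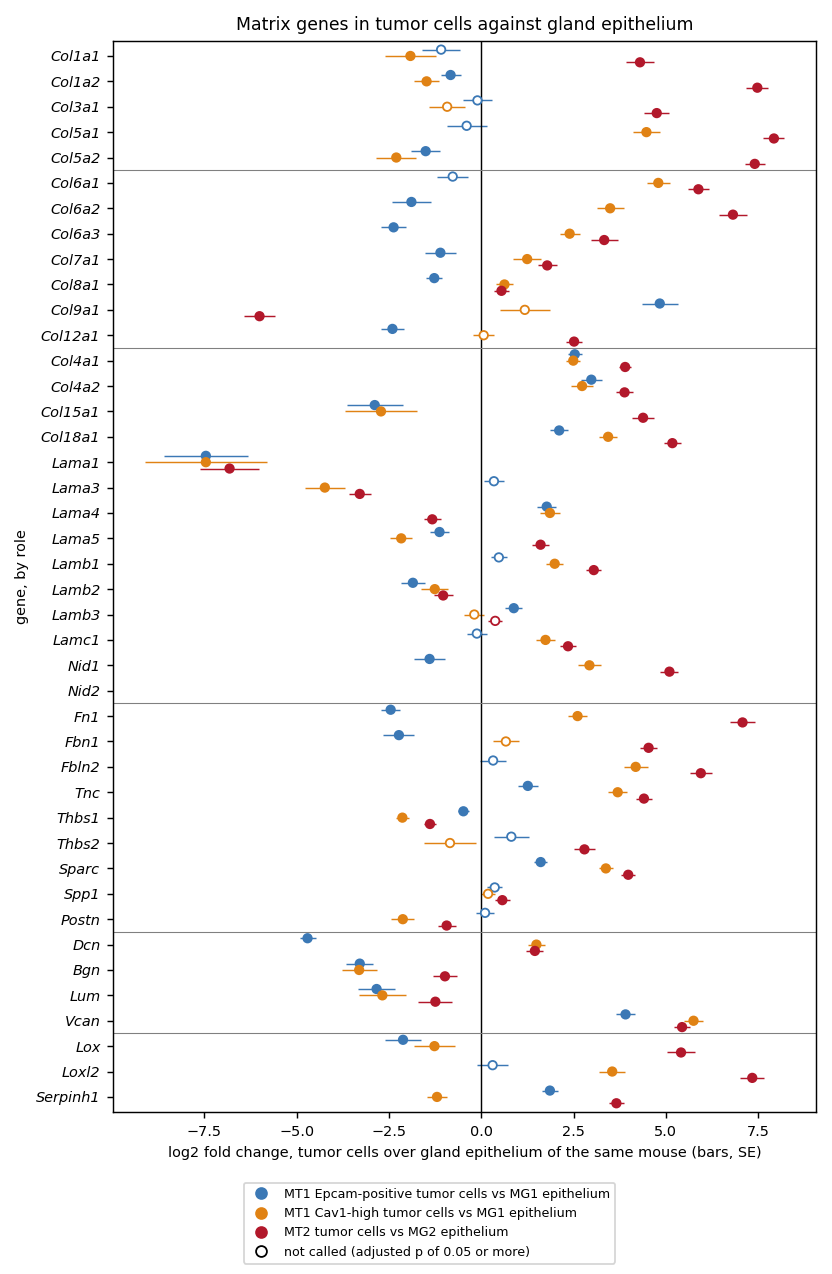
Log2 fold change (x axis) of each of the matrix genes (y axis, grouped by role) in the MT1 Epcam-positive, MT1 Cav1-high and MT2 tumor cells against the gland epithelium of the same mouse, with bars of 1 standard error and filled points for an adjusted p under 0.05. The MT2 points of the 5 fibrillar collagens lie at 4.3 to 7.93, while those of the MT1 Epcam-positive cells lie below 0.

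All 5 fibrillar collagens rose in the MT2 tumor cells against the gland, although the share of cells with Col1a1 or Col3a1 there was not told apart from background (given below), whereas 0 rose and 2 fell in the MT1 Epcam-positive cells and 1 rose and 3 fell in the Cav1-high cells. Col1a2, the second chain of type I collagen, stood at 32.1 and 21.1 CPM in MG1 epithelium, 9.37 and 18.7 in MG2 epithelium, 18.9, 22.5, 15.3, 19.3 and 15 in the 5 libraries of MT1 Epcam-positive cells, 29.4, 12.3, 7.96, 9.3 and 10.3 in Cav1-high cells and 2320.2, 2200.1 and 2546 in the 3 libraries of MT2 tumor cells. Every MT2 library was far above both of its gland libraries, and the MT1 classes overlapped with MG1. The change in MT2 was 7.48 ± 0.30 on the log2 scale (here and below ± SE, adjusted p = 9.32e-18 by edgeR), against -0.83 ± 0.27 and -1.48 ± 0.34 in the MT1 Epcam-positive and Cav1-high cells.

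Col5a2, a chain of type V collagen, which regulates the diameter of type I fibrils, had 11 and 3.83 CPM in MG1, 5.32 and 10.0 in MG2, 1.57, 3.68, 4.39, 3.96 and 3.0 in Epcam-positive cells, 5.34, 6.16, 0.796, 1.86 and 1.29 in Cav1-high cells and 1236, 1166 and 1283 in MT2 tumor cells. It rose in MT2 alone among the 3 comparisons, by 7.41 ± 0.28 (edgeR adjusted p = 2.61e-18), and the test of the difference from the Cav1-high change gave 9.71 ± 0.62 (adjusted p = 3.42e-12). Its partner chain Col5a1 behaved otherwise in MT1. Col5a1 had 3.13 and 0 CPM in MG1, 1.77 and 1.58 in MG2, 1.57, 2.3, 1.72, 2.72 and 2.25 in Epcam-positive cells, 48.1, 80.0, 74.8, 57.6 and 63.1 in Cav1-high cells and 402, 356 and 422 in MT2 tumor cells. The Cav1-high and MT2 libraries all lay above the glands, with changes of 4.47 ± 0.36 and 7.93 ± 0.29 (edgeR adjusted p = 6.41e-11 and 1.45e-18). Because MG1 replicate 2 had 0 UMIs of Col5a1, the Cav1-high value was 10.97 when replicate 1 was left out.

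The other fibrillar chains, Col1a1 and Col3a1, rose less in MT2. Col1a1, the first chain of type I collagen, went from 2.28 and 7.13 CPM in MG2 epithelium to 84.2, 59.7 and 118 in MT2 tumor cells, a change of 4.3 ± 0.38 (edgeR adjusted p = 1.25e-10). Col3a1, which forms type III collagen and co-assembles with type I in fibrils, went from 4.56 and 10.6 to 157, 192 and 226 CPM, a change of 4.75 ± 0.33 (edgeR adjusted p = 1.44e-12). Neither gland overlapped with its tumor for these chains in MT2. In MT1 the falls of fibrillar chains rested on 1 gland library: without MG1 replicate 1, Col1a2 (-0.18) and Col5a2 (-0.0038) no longer passed in the Epcam-positive cells, nor Col1a1 (-0.45), Col1a2 (-0.91) and Col5a2 (-0.89) in the Cav1-high cells, where Col1a1 also failed without MT1 replicate 5 (-1.73). Without MG1 replicate 1 the MT2 changes of Col1a1 and Col3a1 also no longer differed past the threshold from those of the Epcam-positive (3.92 and 2.83) or Cav1-high cells (4.83 and 3.74).

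Col1a2 and Col3a1 are both active in fibroblasts, but in the MT2 tumor cells Col1a2 was abundant and Col3a1 was near the background share of cells (below), so the 250 bases before their RefSeq start sites are shown (GRCm38.p6, both on the plus strand, chr6:4505368-4505617 for Col1a2 and chr1:45311288-45311537 for Col3a1). Capitals mark, on either strand, CCAAT boxes (CCAAT or ATTGG), GC boxes (GGGCGG or CCGCCC) and TATA boxes (TATAAA or TTTATA).

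Col1a2: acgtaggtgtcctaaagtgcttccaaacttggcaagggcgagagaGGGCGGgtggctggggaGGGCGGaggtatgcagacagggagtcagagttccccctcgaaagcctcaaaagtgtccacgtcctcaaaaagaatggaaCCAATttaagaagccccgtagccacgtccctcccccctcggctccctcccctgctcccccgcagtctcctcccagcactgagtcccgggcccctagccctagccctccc

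Col3a1: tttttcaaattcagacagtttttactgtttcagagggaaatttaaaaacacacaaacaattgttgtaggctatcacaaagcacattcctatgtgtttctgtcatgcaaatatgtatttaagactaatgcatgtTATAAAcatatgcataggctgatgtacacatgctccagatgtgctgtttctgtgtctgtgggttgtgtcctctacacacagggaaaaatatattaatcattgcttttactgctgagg

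The Col1a2 window held 1 CCAAT box, 2 GC boxes and no TATA box and was 62.0% G or C, while the Col3a1 window held 1 TATA box, neither of the other motifs, and was 35.2% G or C. Among 32851 promoter windows of the same length, 33.85% held a CCAAT box, 32.74% a GC box and 12.37% a TATA box. The motifs are a description of these windows, and 28 of the 42 genes matched an entry. In the GENCODE annotation of this build Col1a2 is a protein-coding gene at chr6:4504814-4541544, and Col3a1 at chr1:45311538-45349706. The Col1a2 window thus lies inside the GENCODE gene, after its start, while the Col3a1 window ends just before its gene. The motifs listed for Col1a2 therefore hold for the RefSeq start alone, and the absence of a TATA box there does not cover other starts.

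How much of each fibrillar transcript belonged to the tumor cells was read from the share of cells with at least 1 UMI, with every cell thinned to 1000 UMIs. Col1a2 was found in 79.2% of MT2 tumor cells (95% exact interval 78.4 to 80.0, 95.4% before thinning), in 99.5% of MT2 fibroblast-like cells, in 35.3% of MT2 immune-like cells (28.1 to 43.1) and in 12.9% of MT2 endothelial-like cells (3.63 to 29.8). The median depths before thinning were 3142 UMIs in tumor cells, 2268 in immune-like cells and 1896 in endothelial-like cells. Immune and endothelial cells should hold little fibrillar collagen, so their shares mark the background that free RNA or adhering material gives, and the tumor cells stood well above it for Col1a2. Col5a2 was likewise above it, at 65.3% of tumor cells against 24.6% of immune-like and 3.23% of endothelial-like cells. For Col1a1 (7.16% of tumor cells, 17.5% before thinning, against 5.99% and 11.4% of immune-like cells) and Col3a1 (11.2% against 9.58% of immune-like and 9.68% of endothelial-like cells) the tumor cells were within the interval of the immune-like cells, 2.91 to 10.7 and 5.58 to 15.1. Their share in MT2 tumor cells is thus not told apart from the immune-like background here. As pooled CPM, Col1a1 was at 86.7 in tumor, 152 in immune-like and 26.6 in endothelial-like cells, the last from 2 UMIs. Col3a1 was at 191, 486 and 66.5, the last from 5 UMIs. The immune-like libraries differed, with 1, 16 and 61 UMIs of Col1a1 in 43, 58 and 66 cells. In MT1, 1.71% of Epcam-positive and 1.04% of Cav1-high cells held Col1a2, beside 1.72% of endothelial-like cells (0.0436 to 9.24), and neither class was told apart from background. The same held for Col1a1, Col3a1 and Col5a2, found in 0.299 to 1.23% of these cells against 0 to 1.72% of endothelial-like cells. Col5a1 was found in 7.09% of Cav1-high cells (5.77 to 8.60), 0.266% of Epcam-positive cells and none of the 58 endothelial-like cells (0 to 6.16). The intervals cover counting error only. This check was not made on the gland side. Col1a2 had 93 UMIs in the 656 epithelial cells of MG1 and 6 in its 18 endothelial-like cells. Its ratio to Col1a1 was 3.0 in MG1 epithelium and 4.35 in MG1 fibroblast-like cells. The part of free RNA in the gland values of fibroblast genes, and so in their falls in MT1, was not tested.

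The collagens outside the fibrils moved in both tumors. Of the 7, 1 rose and 5 fell in the Epcam-positive cells, 5 rose and 0 fell in the Cav1-high cells, and 6 rose and 1 fell in MT2. Type VI collagen forms beaded filaments that anchor cells near basement membranes. Its chain Col6a1 had 7.43 and 9.59 CPM in MG1, 2.79 and 7.39 in MG2, 4.72, 4.6, 5.15, 4.7 and 6.01 in Epcam-positive cells, 187, 332, 279, 261 and 184 in Cav1-high cells and 255, 287 and 306 in MT2. It rose by 4.80 ± 0.32 in the Cav1-high and 5.88 ± 0.29 in the MT2 cells (edgeR adjusted p = 2.08e-12 and 7.25e-16), while the lower Epcam-positive value, -0.77 ± 0.42, did not pass (adjusted p = 0.111). Col6a2 followed the same order, with 7.43 and 3.83 CPM in MG1, 1.01 and 1.58 in MG2, 4.72, 1.84, 1.72, 1.24 and 2.25 in Epcam-positive, 37.4, 111, 95.5, 100.4 and 72.1 in Cav1-high and 138, 123 and 162 in MT2 cells. Its changes were 3.49 ± 0.37 and 6.82 ± 0.38 in the Cav1-high and MT2 cells (edgeR adjusted p = 9.48e-09 and 9.32e-15). Col6a3, its long chain, was the exception in MT2. It had 12.1 and 23 CPM in MG1, 0.76 and 1.58 in MG2, 2.36, 3.22, 2.86, 2.48 and 4.51 in Epcam-positive, 64.1, 73.9, 96.3, 89.3 and 92.8 in Cav1-high and 11.5, 9.65 and 12.8 in MT2 cells, so the Cav1-high libraries were the highest and the MT2 libraries reached only the level of MG1. Its changes were -2.37 ± 0.34, 2.39 ± 0.27 and 3.33 ± 0.37 in the Epcam-positive, Cav1-high and MT2 cells, each past the threshold in edgeR (adjusted p = 1.55e-06, 2.44e-08 and 1.06e-08). The pooled Col6a3 level of MT2 tumor cells, 11.3 CPM, was below that of MT2 immune-like cells, 25.4 CPM from 13 UMIs. The MT2 level of Col6a3 is thus not told apart from background here.

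Col9a1, a collagen best known from cartilage and placed on the surface of fibrils, was highest in the Epcam-positive cells among gland epithelium and tumor classes. It was among the 10 leading genes of their cluster with 3443 MT1 cells, and not of that with 2579 MT1 cells. It had 1.17 and 17.3 CPM in MG1, 40.8 and 29.3 in MG2, 153, 102, 138, 125 and 155 in Epcam-positive, 5.34, 6.16, 8.76, 12.1 and 16.7 in Cav1-high and 0.419, 0.95 and 0.0764 in MT2 cells. Every Epcam-positive library lay above all 4 gland libraries, and every MT2 library lay below them. The changes were 4.84 ± 0.48 in Epcam-positive and -6.01 ± 0.41 in MT2 cells (edgeR adjusted p = 4.61e-09 and 6.99e-13), and the 2 MG1 libraries were so far apart that the first ranged from 3.00 to 6.60 when 1 library was left out. After thinning, 10.6% of Epcam-positive cells held a UMI of Col9a1, against 5.31% of MG2 luminal secretory-like cells and 1.12% of Cav1-high cells. Col12a1, a collagen that binds the surface of type I fibrils, had 15.3 and 21.1 CPM in MG1, 14.9 and 13.2 in MG2, 2.36, 3.22, 3.82, 3.71 and 3.0 in Epcam-positive, 13.4, 21.5, 23.1, 25.1 and 9.02 in Cav1-high and 77.5, 72.6 and 78.1 in MT2 cells. It fell in the Epcam-positive cells (-2.41 ± 0.31, edgeR adjusted p = 3.24e-07) and rose in MT2 (2.51 ± 0.21, adjusted p = 3.49e-11), and the Cav1-high cells overlapped with MG1. Col7a1, the anchoring fibril collagen of epithelial junctions, and Col8a1, a short-chain network collagen, changed by 1.79 ± 0.26 and 0.55 ± 0.19 in MT2, the latter call being lost without MG2 replicate 1 (0.52) or MT2 replicate 1 (0.46). Without MG1 replicate 1 the Epcam-positive calls of Col6a2 (-0.89) and Col7a1 (-0.08) were lost, as was the Cav1-high call of Col8a1 (0.30).

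Basement membrane genes split within each tumor. Of the 13 tested, 5 rose and 5 fell in the Epcam-positive cells, 7 rose and 5 fell in the Cav1-high cells, and 8 rose and 4 fell in MT2. The genes of type IV collagen, the scaffold of the basement membrane, rose in all 3. Col4a1 had 25 and 24.9 CPM in MG1, 42.8 and 56.7 in MG2, 168, 164, 157, 155 and 153 in Epcam-positive, 139, 157, 159, 161 and 166 in Cav1-high and 693, 649 and 754 in MT2 cells. No tumor library overlapped with a gland library, and the changes were 2.53 ± 0.19, 2.49 ± 0.19 and 3.90 ± 0.17 (edgeR adjusted p = 1.55e-11, 2.89e-11 and 5e-17). Col4a2 had 10.2 and 15.3 CPM in MG1, 24.1 and 19.8 in MG2, 83.4, 96.5, 118, 86.9 and 104 in Epcam-positive, 58.8, 67.7, 108, 71.6 and 96.6 in Cav1-high and 307, 290.4 and 321 in MT2 cells. Its changes were close to those of Col4a1, 2.98 ± 0.28, 2.73 ± 0.29 and 3.88 ± 0.23 (edgeR adjusted p = 1.85e-09, 1.35e-08 and 2.83e-14).

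Col18a1, the source of endostatin and a component of epithelial and vascular basement membranes, had 11.7 and 24.9 CPM in MG1, 10.9 and 13.7 in MG2, 71.6, 73.5, 64.9, 77 and 64.6 in Epcam-positive, 136, 237, 179.9, 183 and 167 in Cav1-high and 407, 397 and 457 in MT2 cells. It also rose in all 3 tumor classes, by 2.11 ± 0.25, 3.44 ± 0.25 and 5.18 ± 0.22 (edgeR adjusted p = 6.44e-08, 8.88e-12 and 4.97e-17), again with no overlap between tumor and gland. Col15a1, its relative, went the other way in MT1. It had 3.52 and 1.92 CPM in MG1, 2.28 and 4.49 in MG2, 1.57, 0, 0.191, 0.99 and 0 in Epcam-positive, 0, 0, 0.796, 0.93 and 0 in Cav1-high and 70.3, 55.9 and 74.2 in MT2 cells, so it was at or near 0 in MT1 and rose in MT2 by 4.38 ± 0.30 (edgeR adjusted p = 9.16e-13). Its fall in the Epcam-positive cells, -2.89 ± 0.76, was lost without MG1 replicate 1 (-1.94), and that in the Cav1-high cells, -2.72 ± 0.99, likewise (-1.85).

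Laminins are trimers of an alpha, a beta and a gamma chain. Lama1, an alpha chain that in the adult gland belongs to the basal layer, had 3.52 and 9.59 CPM in MG1 and 3.04 and 3.96 in MG2 epithelium and 0 UMIs in all 13 sums of tumor cells. With a floor of 3 counts over each tumor class, it was at least 23.3-fold lower in the Epcam-positive, 5.77-fold lower in the Cav1-high and 47.8-fold lower in the MT2 cells, from 14 UMIs in MG1 and 27 in MG2 epithelium. The edgeR adjusted p was 2.78e-05, 0.000916 and 9.85e-07, whereas DESeq2 did not call it in any of the 3. Lama3, the alpha chain of the laminin that anchors epithelial hemidesmosomes, had 23.9 and 19.2 CPM in MG1, 20.5 and 15.3 in MG2, 44, 27.6, 25.4, 27.5 and 38.7 in Epcam-positive, 0, 0, 3.18, 0.93 and 0 in Cav1-high and 1.68, 2.05 and 1.37 in MT2 cells. It fell in the Cav1-high (-4.24 ± 0.54) and MT2 cells (-3.29 ± 0.29) with edgeR adjusted p of 2.09e-07 and 1.58e-10, and in the Epcam-positive cells its value of 0.34 ± 0.28 did not pass (adjusted p = 0.298). Lama4, typical of vessels and mesenchyme, rose in both MT1 classes (1.77 ± 0.26 and 1.86 ± 0.28) and fell in MT2 (-1.33 ± 0.22), while Lama5, the broad alpha chain of adult epithelia, fell in both MT1 classes (-1.13 ± 0.25 and -2.17 ± 0.30) and rose in MT2 (1.61 ± 0.23), all past the edgeR threshold. The beta and gamma chains shared by most laminins, Lamb1 and Lamc1, rose in the Cav1-high (1.99 ± 0.23 and 1.74 ± 0.27) and MT2 cells (3.05 ± 0.20 and 2.35 ± 0.20). Lamb2 fell in all 3 comparisons (-1.85 ± 0.32, -1.26 ± 0.37 and -1.03 ± 0.25), although without MG1 replicate 1 neither MT1 call held (-1.07 and -0.55), nor did the rise of Lamb3 in the Epcam-positive cells (0.33 against 0.88 ± 0.23). Nid1, which bridges laminin and type IV collagen, rose in the Cav1-high and MT2 cells by 2.93 ± 0.31 and 5.10 ± 0.24 and fell in the Epcam-positive cells by 1.40 on the log2 scale, which no longer passed the threshold without MG1 replicate 2 (-1.10). Nid2 had 0 UMIs in the Cav1-high cells and 0.14, 0.0731 and 0 CPM in MT2 tumor cells.

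Fibronectin showed the widest span of the glycoproteins. Fn1, the adhesive glycoprotein that integrins assemble into fibrils, had 83.7 and 99.7 CPM in MG1, 9.88 and 24.8 in MG2, 14.2, 12.4, 20.8, 12.9 and 25.5 in Epcam-positive, 476, 680.3, 631, 666 and 551 in Cav1-high and 2097, 2098 and 2394 in MT2 cells. The Epcam-positive libraries all lay below MG1, and the Cav1-high and MT2 libraries all lay above their glands. The changes were -2.45 ± 0.26, 2.61 ± 0.27 and 7.08 ± 0.33 (edgeR adjusted p = 1.09e-08, 4.9e-09 and 2.28e-16), and the MT2 change exceeded the Epcam-positive change by 9.53 ± 0.41 (adjusted p = 2.81e-16). The gene lies at chr1:71585520-71653200 on the minus strand of GRCm38.p6. After thinning, 77.8% of MT2 tumor cells, 33.3% of Cav1-high cells and 1.53% of Epcam-positive cells held a UMI of Fn1, and so did 57.5% of MT2 immune-like and 38.7% of MT2 endothelial-like cells.

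Fbln2, a fibulin of elastic fibers and basement membranes, had 12.1 and 28.8 CPM in MG1, 15.7 and 14 in MG2, 17.3, 12.9, 30.2, 19.6 and 25.2 in Epcam-positive, 246, 314, 427, 327 and 295 in Cav1-high and 871, 876 and 855 in MT2 cells. It rose in the Cav1-high (4.18 ± 0.32, edgeR adjusted p = 3.4e-11) and MT2 cells (5.95 ± 0.30, 1.41e-15), and the Epcam-positive libraries overlapped with MG1. Tnc, tenascin-C, a glycoprotein of remodelling tissue, had 10.2 and 15.3 CPM in MG1, 13.2 and 13.7 in MG2, 26.7, 28, 36.1, 30.2 and 25.5 in Epcam-positive, 128, 203, 179.9, 141 and 175 in Cav1-high and 276, 249.7 and 283 in MT2 cells. It rose in all 3 classes, by 1.26 ± 0.26, 3.70 ± 0.25 and 4.41 ± 0.21 (edgeR adjusted p = 0.000216, 3.5e-12 and 4.37e-16), the first call being lost without MG1 replicate 1 (1.02). Sparc, a collagen-binding matricellular protein, had 70.0 and 78.6 CPM in MG1, 67.6 and 72.8 in MG2, 252, 229, 268, 239 and 218 in Epcam-positive, 697, 973, 913, 860.0 and 754 in Cav1-high and 917, 1126 and 1097 in MT2 cells. Its changes rose in the same order, 1.61 ± 0.18, 3.38 ± 0.19 and 3.98 ± 0.19 (edgeR adjusted p = 2.5e-08, 7.5e-14 and 3.26e-16), with no overlap between tumor and gland.

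The remaining glycoproteins moved in both directions. Fbn1, the fibrillin of microfibrils, and Thbs2, a thrombospondin of connective tissue, rose in MT2 by 4.53 ± 0.23 and 2.80 ± 0.28 (edgeR adjusted p = 1.47e-15 and 1.15e-09). Thbs1, the thrombospondin that activates latent TGF-β, fell in the Cav1-high and MT2 cells by 2.14 and 1.39 on the log2 scale, and Postn, periostin, by 2.13 and 0.94, all past the edgeR threshold. Spp1, osteopontin, was the most counted of the 42 genes in gland epithelium, with 911 and 1503 CPM in MG1 and 2518 and 2688 in MG2, and changed only in MT2 (0.57 ± 0.21, edgeR adjusted p = 0.019), where the call was lost without MT2 replicate 2 (0.40) or MG2 replicate 1 (0.58). Without MG1 replicate 1, Postn (-0.70) in the Cav1-high cells and Thbs1 (-0.46) and Fbn1 (-1.79) in the Epcam-positive cells no longer passed. The share of basal cells in the gland bore on these genes: with luminal cells alone as the gland side, Thbs1 in the Epcam-positive cells (0.41) and Postn in MT2 (0.77) turned direction.

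**Figure D2:**
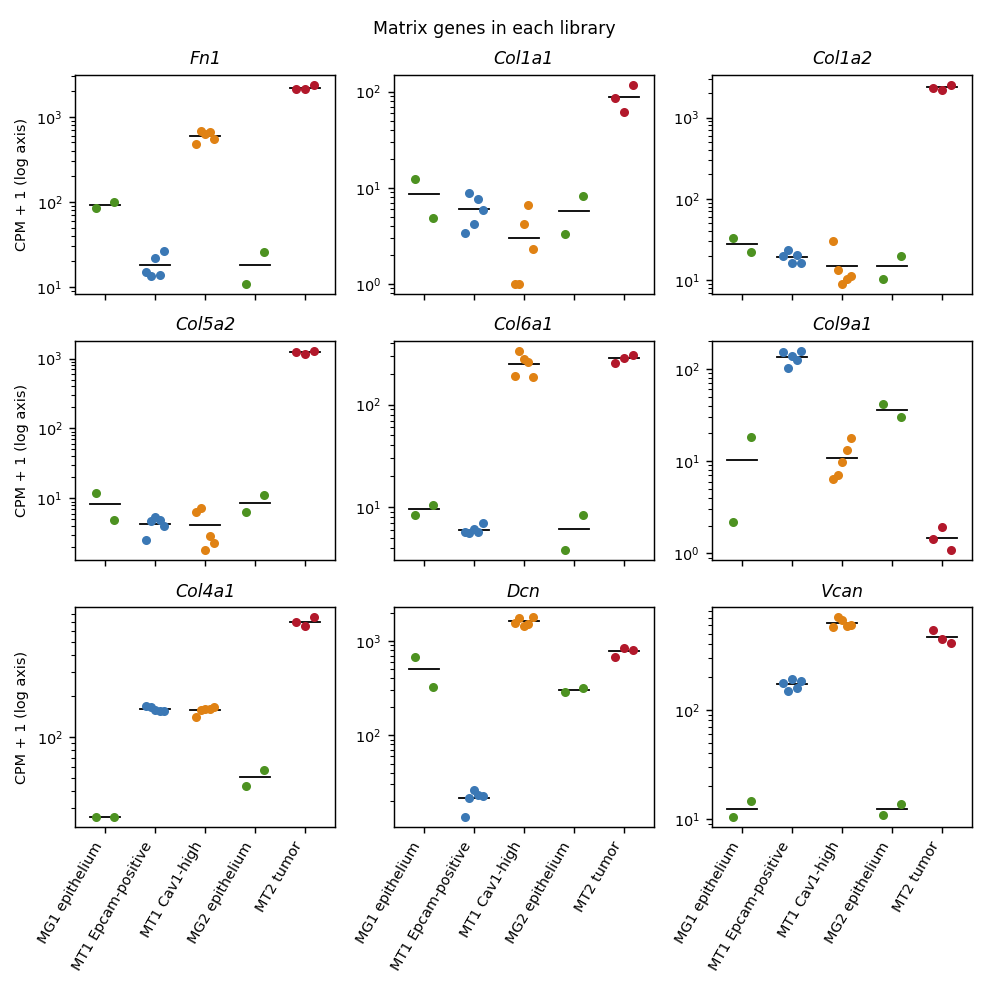
Level in CPM plus 1 (y axis, log scale with its own range for each gene) of 9 matrix genes in each library, with 1 point per library for gland epithelium of MG1 and MG2, MT1 Epcam-positive, MT1 Cav1-high and MT2 tumor cells, and a line at the mean. Fn1 reaches 2097 to 2394 in MT2 and Dcn 1454 to 1775 in the Cav1-high cells, each above every gland library.

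Among the proteoglycans, Dcn parted the 2 tumor classes of MT1. Decorin, its product, is a small leucine-rich proteoglycan that binds collagen fibrils. Dcn had 675 and 324 CPM in MG1, 286 and 315 in MG2, 12.6, 20.7, 25.4, 22 and 21.4 in Epcam-positive, 1568, 1749, 1454, 1527 and 1775 in Cav1-high and 679, 848 and 795 in MT2 cells. The Epcam-positive libraries all lay below MG1 (-4.71 ± 0.22, edgeR adjusted p = 1.6e-15), and the Cav1-high (1.49 ± 0.23, 2.84e-06) and MT2 libraries (1.45 ± 0.23, 4.62e-06) all lay above their glands. A UMI of Dcn was held by 62.5% of Cav1-high cells, 2.01% of Epcam-positive cells and 3.45% of the 58 MT1 endothelial-like cells after thinning. The Epcam-positive share was thus not told apart from background. Vcan, versican, a large hyaluronan-binding proteoglycan, rose in every class. It had 9.39 and 13.4 CPM in MG1, 9.88 and 12.7 in MG2, 175, 146, 190.3, 157 and 183 in Epcam-positive, 572, 702, 665, 588 and 604 in Cav1-high and 533, 441 and 409.7 in MT2 cells, with changes of 3.91 ± 0.25, 5.75 ± 0.25 and 5.44 ± 0.22 (edgeR adjusted p = 7.84e-13, 6.03e-16 and 1.05e-17). Bgn, biglycan, a relative of decorin, had 30.5 and 15.3 CPM in MG1, 9.62 and 12.1 in MG2, 1.57, 1.38, 3.25, 3.47 and 3.38 in Epcam-positive, 2.67, 0, 2.39, 3.72 and 3.86 in Cav1-high and 3.98, 3.95 and 7.64 in MT2 cells. It fell in every class (-3.29 ± 0.36, -3.31 ± 0.47 and -0.98 ± 0.32, edgeR adjusted p = 2.55e-08, 1.39e-06 and 0.00864), the last being lost without MG2 replicate 2 (-0.79) and turned with luminal cells alone as the gland side (0.32). Lum, lumican, also lay below its gland in each class, with 9.39 and 9.59 CPM in MG1, 2.53 and 3.69 in MG2, 0.786, 0.46, 1.53, 1.24 and 2.63 in Epcam-positive, 5.34, 3.08, 0.796, 0 and 2.58 in Cav1-high and 1.05, 1.32 and 1.3 in MT2 cells. Its changes were -2.84 ± 0.50, -2.68 ± 0.63 and -1.24 ± 0.46 (edgeR adjusted p = 2.49e-05, 0.000694 and 0.02), and the last was lost without either MG2 library (-1.44 and -0.93) or MT2 replicate 1 (-1.15).

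The genes that finish collagen all rose in MT2. Loxl2, a lysyl oxidase-like enzyme that cross-links collagen, type IV included, had 5.08 and 3.83 CPM in MG1, 0.76 and 2.38 in MG2, 3.93, 6.43, 7.64, 5.2 and 8.64 in Epcam-positive, 45.4, 92.4, 71.6, 62.3 and 52.8 in Cav1-high and 233, 262 and 231 in MT2 cells. It rose in the Cav1-high (3.55 ± 0.35, edgeR adjusted p = 3.08e-09) and MT2 cells (7.34 ± 0.32, 5.9e-17). Lox, the lysyl oxidase of fibrillar collagen and elastin, had 9.0 and 3.83 CPM in MG1, 1.27 and 1.06 in MG2, 0, 3.22, 3.05, 0.99 and 1.5 in Epcam-positive, 8.02, 0, 4.78, 2.79 and 2.58 in Cav1-high and 46.6, 47.7 and 49.6 in MT2 cells. It rose in MT2 by 5.41 ± 0.38 (edgeR adjusted p = 1.72e-12), and its falls in MT1 were lost without MG1 replicate 1 (-0.87 in Epcam-positive and -0.10 in Cav1-high cells), the latter also without any of several other libraries. Serpinh1, which codes for HSP47, the chaperone that collagen chains need to fold, was the only one of these to rise in the Epcam-positive cells (1.86 ± 0.21). It fell in the Cav1-high cells (-1.20 ± 0.27) and rose in MT2 (3.66 ± 0.20), all past the edgeR threshold (adjusted p = 3.92e-08, 0.000431 and 7.57e-15).

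Within MT1 the Cav1-high and Epcam-positive cells were compared library by library. This comparison used a fit with the library as a block that also held the rare stromal classes, whose low counts left 1060 genes for testing. Of 34 matrix genes tested, 18 were higher in the Cav1-high cells, 6 were lower and 10 did not pass (80.2% of all genes tested passed), with a median of 1.33 beside -0.04 over all genes tested. Dcn (6.06 ± 0.09), Col6a1 (5.47 ± 0.19), Col6a2 (5.18 ± 0.36), Fn1 (4.98 ± 0.15), Col5a1 (4.71 ± 0.30), Col6a3 (4.61 ± 0.32), Nid1 (4.21 ± 0.34) and Fbln2 (3.79 ± 0.12) led the higher genes on the log2 scale. The lower genes were led by Serpinh1 (-3.13 ± 0.18), Postn (-2.31 ± 0.22) and Thbs1 (-1.72 ± 0.11), with an edgeR adjusted p of at most 4.75e-12 for each of these 3. Col4a1 (-0.12 ± 0.09, adjusted p = 0.242) and Lama4 (-0.01 ± 0.18, 0.973) did not differ past the threshold. Both Col3a1 (-0.94) and Col4a2 (-0.37) lost their calls without several single libraries (MT1 replicates 2, 3, 4 or 5, and 1, 3 or 4), with ranges of -1.12 to -0.68 and -0.38 to -0.30, and also without the library as a block. The call of Thbs2 (-1.70) was lost without MT1 replicate 4 (-1.31).

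Set against the fibroblast-like cells of the same tumor, most of the matrix genes tested were lower in tumor cells. Of 37 tested in MT2, 3 were higher in tumor cells, 31 lower and 3 did not pass (42.9% of all genes tested passed), with a median of -2.70. In MT1, 1 was higher, 30 lower and 3 did not pass of 34 for the Epcam-positive cells (53.6% of all genes), and 1, 28 and 5 for the Cav1-high cells (48.5%), with medians of -6.94 and -3.46. The median over all genes tested was 0.03, 0.13 and -0.01 in these 3. The MT1 fibroblast-like sums rested on 42 of the 46 cells, since the first library, with 4, was not used. In MT1 the small stromal sums raised the level needed to pass the low-count filter. Genes low in tumor cells passed it only where a stromal class was high, so these MT1 counts and medians lean that way. Col9a1, Lama3 and Lama5 were not tested, at 133, 30.1 and 39.0 pooled CPM in Epcam-positive and 21.2, 0 and 10.6 in fibroblast-like cells. Col7a1 (5.26 against 201) and Lamb2 (5.98 against 95.4) were not tested either.

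The basement membrane genes spread widely about the fibroblast level in MT2: of 10 tested, 2 were higher in tumor cells, 6 lower and 2 did not pass, with a median of -1.05. Lama4 was at 2.19% of the pooled fibroblast-like level and Nid1 at 18.4%. Fn1 was at 2097, 2098 and 2394 CPM in tumor cells and 1788, 2272 and 2274 in fibroblast-like cells, groups that overlapped, with a difference of -0.09 ± 0.23 (edgeR adjusted p = 0.785). Col4a1 (0.43 ± 0.27, 0.207) and Col4a2 (0.68 ± 0.30, 0.0708) did not pass either. Lama5 (2.56 ± 0.45), Col18a1 (0.95 ± 0.30) and Spp1 (0.52 ± 0.18) were higher in tumor cells, the last with a call that DESeq2 and the fit without MT2 replicate 3 (0.57) did not make. For the fibrillar chains the order was reversed: Col1a2 reached 15622, 13334 and 16975 CPM in the fibroblast-like libraries of MT2, -2.87 ± 0.35 on the log2 scale in tumor against fibroblast-like cells (edgeR adjusted p = 2.05e-07). Col5a2 (-1.60 ± 0.28) and Col5a1 (-1.63 ± 0.25) were closer to the fibroblast-like level, and Col1a1 (-6.19 ± 0.31), Col3a1 (-6.74 ± 0.35), Col6a3 (-7.64 ± 0.30) and Lum (-10.11 ± 0.28) were far below it, all past the edgeR threshold. As pooled levels, MT2 tumor cells had 108.2% of the fibroblast-like level of Fn1, 158% of Col4a1, 36.1% of Col5a2, 14.8% of Col1a2, 1.43% of Col1a1 and 1.06% of Col3a1. Of 38 genes with a ratio, 6 were at or over 100%, 19 between 10 and 100%, 8 between 1 and 10% and 5 under 1%.

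In MT1 the Cav1-high cells stood closer to fibroblast-like cells than the Epcam-positive cells did. Of 36 genes with a ratio, 18 of the Cav1-high levels were at or over 10% of the fibroblast-like level, against 9 of the Epcam-positive levels. Vcan of the Cav1-high cells reached 86.7% of that level (-0.44 ± 0.22, edgeR adjusted p = 0.098), Col4a1 71.4%, Fn1 33.7% (-1.79 ± 0.26, 4.83e-07), Dcn 31.3% (-1.86 ± 0.11, 1.79e-16) and Col1a2 0.0795%. Among the 34 genes tested, only Col18a1 passed as higher in Cav1-high than in fibroblast-like cells (1.85 ± 0.72, 0.0324), a call lost without MT1 replicate 2 (1.18) or replicate 4 (1.47). In the Epcam-positive cells only Spp1 did (1.32 ± 0.44, 0.0106), a call lost without MT1 replicate 4 (1.05). Col9a1, Lama3 and Lama5, with higher pooled levels in Epcam-positive than in fibroblast-like cells (above), were not tested and had no ratio.

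**Figure D3:**
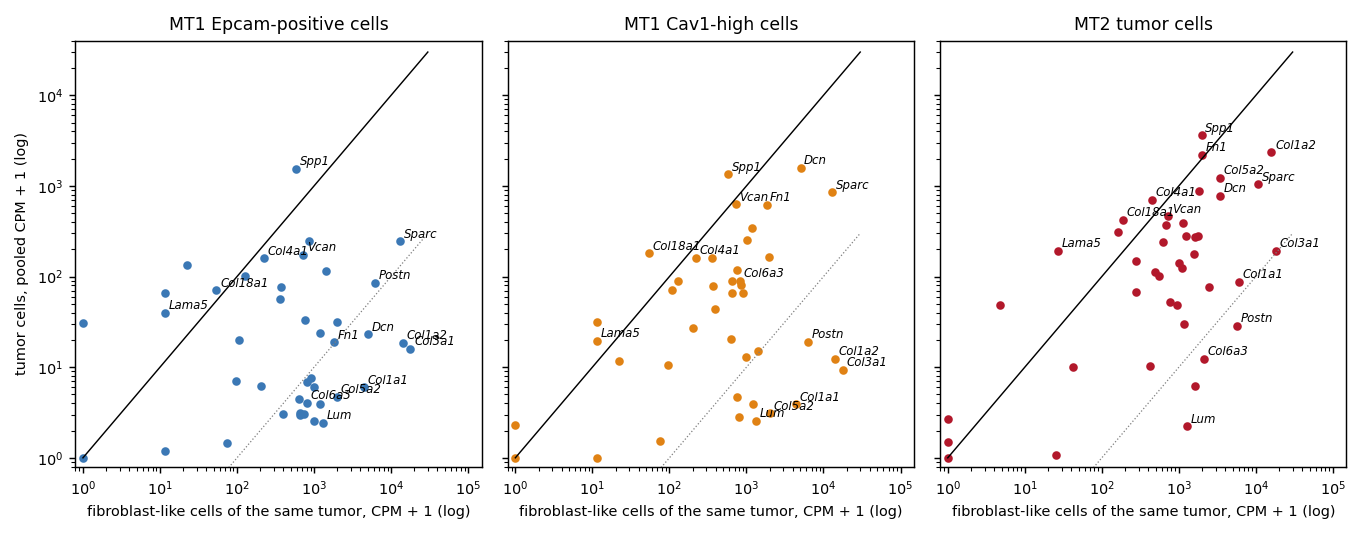
Pooled level of each matrix gene in tumor cells (y axis) against its pooled level in fibroblast-like cells of the same tumor (x axis), both as CPM plus 1 on log scales, for MT1 Epcam-positive, MT1 Cav1-high and MT2 tumor cells, with a solid line where both are equal and a dotted line at 1% of the fibroblast-like level. In MT2, Fn1 lies near the line at 2192 against 2026, and Col3a1 lies far below it at 191 against 18055.

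Endothelial-like cells, the vascular class, differed from tumor cells in another set of genes. Of 37 tested in MT2, 13 were higher in tumor cells, 8 lower and 16 did not pass (17.5% of all genes passed), with a median of 1.93 beside 0.38 over all genes tested. The basement membrane genes Lama4 (-6.26 ± 0.45), Col4a2 (-2.62 ± 0.32) and Col4a1 (-2.46 ± 0.30) were lower in MT2 tumor than in endothelial-like cells, and Fn1 (2.03 ± 0.35), Col1a2 (4.20 ± 0.66), Col5a2 (4.82 ± 0.74) and Vcan (5.12 ± 0.89) were higher, all past the edgeR threshold, Fn1 not without MT2 replicate 3 (1.51). For the Cav1-high cells of MT1, 12 were higher, 14 lower and 8 did not pass of 34 (53.9% of all genes), with a median of -1.38. Col4a1 (-3.61 ± 0.16), Col4a2 (-3.86 ± 0.22), Lama4 (-3.65 ± 0.26) and Sparc (-3.11 ± 0.12) were again lower, and Dcn (5.98 ± 0.40), Col6a1 (3.91 ± 0.65) and Vcan (2.40 ± 0.32) higher. Without MT2 replicate 3 the 21 calls in MT2 fell to 12. These sums drew on 27 of the 31 cells in MT2, whose second library had under 5 and was not used, and on 58 in MT1.

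Which class held a transcript also depends on how many cells it had. In MT2, where 95% of cells were tumor cells and 2.02% fibroblast-like, tumor cells held 97.0% of all Fn1 UMIs, 94.6% of Col5a2, 88.9% of Col1a2, 46.3% of Col1a1, which was spread at the low share per cell given above, and 23.1% of Postn. The fibroblast-like cells held 42.3% of Col1a1 and 61.1% of Postn. In MT1, the Cav1-high cells, 17.4% of the cells, held 72.7% of Fn1 and 80.2% of Dcn, while 48.8% of Col1a2 lay in the Acta2-high stromal and 33.0% in the fibroblast-like cells. The enrichment protocol selected for epithelium, so these shares describe the suspensions and not the tissue.

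The chains of 1 collagen type were compared within each class, since such chains can assemble into 1 molecule. A 3′ UMI count does not scale with transcript length, so the ratio is one of molecules counted. The ratio of Col1a2 to Col1a1 UMIs was 27.1 in MT2 tumor cells (21.6 to 36.8 over 3 libraries, from 96629 and 3561 UMIs), against 2.62 in MT2 fibroblast-like cells (2.42 to 3.23) and 3.22, 4.35 and 2.29 in those of MT1, MG1 and MG2. The highest fibroblast-like library, one of MG1, gave 8.40, so no library overlapped with the tumor cells. MT2 immune-like cells gave 19, 20.8 and 4.98 in the 3 libraries, from 1, 16 and 61 UMIs of Col1a1, and 8.40 pooled, so 2 of these libraries came close to the lowest tumor library. Col5a2 to Col5a1 was alike in MT2 tumor (3.12, libraries 3.04 to 3.27) and fibroblast-like cells (3.01, 2.98 to 3.27), but 0.0321 in the Cav1-high cells of MT1, from 8 and 249 UMIs. Col6a1 to Col6a3 was 24.9 in MT2 tumor cells (22.3 to 29.7), 2.82 in Cav1-high cells and 0.833 in MT2 fibroblast-like cells, whereas Col6a1 to Col6a2 was 2.00, 2.85 and 1.77. MT2 immune-like cells gave 5.46 for Col6a1 to Col6a3, from 71 and 13 UMIs. Col4a1 to Col4a2 kept a narrow span, 2.28 in MT2 tumor cells, 1.55 and 1.82 in the MT1 Epcam-positive and Cav1-high cells and 1.60 to 3.00 in endothelial-like cells. So Col1a1 and Col6a3 were scarce beside their partners in MT2 tumor cells, and Col5a2 in the Cav1-high cells.

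**Figure D4:**
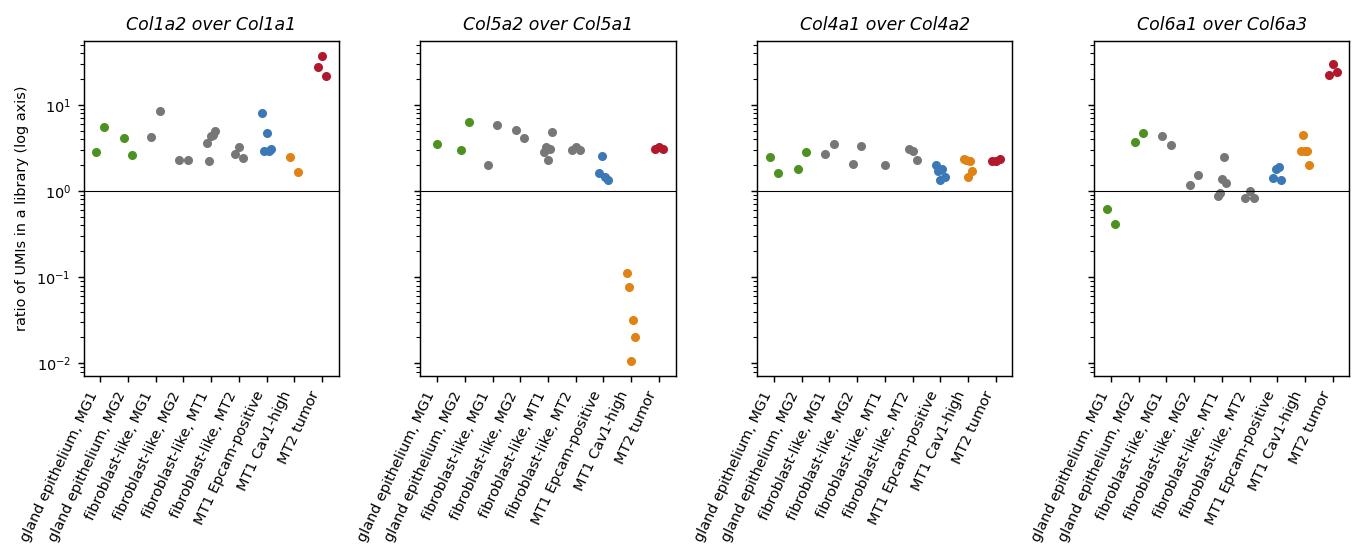
Ratio of the UMI counts of partner collagen chains (y axis, log scale, line at equal counts) in each cell class (x axis), with 1 point per library that held at least 10 UMIs of both chains together and some of each. Col1a2 over Col1a1 lies at 21.6 to 36.8 in MT2 tumor cells, above every other class, and Col5a2 over Col5a1 lies below 1 in the Cav1-high cells only.

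In the gland itself, most of the matrix genes tested were higher in basal-like than in luminal-like cells. Of 37 tested against the luminal-like cells of both glands, 23 were higher in basal-like cells, 3 lower and 11 did not pass (38.7% of all genes passed), with a median of 2.30 beside -0.06 over all genes tested. Thbs1 was at 1105 and 2102 CPM in MG1 and 2630.3 and 3081 in MG2 basal-like cells, above every luminal library, a difference of 3.19 ± 0.31 (edgeR adjusted p = 2.57e-08). Postn (4.62 ± 0.43), Fbn1 (4.57 ± 0.54), Lama3 (3.95 ± 0.35), Sparc (3.74 ± 0.50) and Col12a1 (3.66 ± 0.46) were also higher. The 3 lower genes were Spp1 (-3.55 ± 0.40), Lama5 (-2.16 ± 0.37) and Col8a1 (-1.91 ± 0.46). Spp1 was highest in luminal secretory-like cells, at 1883 and 3625 CPM in MG1 and 4279 and 4172 in MG2, and Col8a1 in luminal hormone-sensing-like cells, at 110.5 and 188 and 157 and 164. Dcn was at 1145 and 447 and 536 and 582 CPM in hormone-sensing-like and 614 and 348 and 278 and 339.9 in basal-like cells, and did not differ between basal and luminal cells past the threshold (-0.03 ± 0.23, edgeR adjusted p = 0.929). The fibroblast marker list moved with the basal-like class, at 810 CPM in MG1 (10 of 14 markers with a UMI) and 1098 in MG2 (13 of 14), against 136 to 453 CPM in the luminal classes. Tcf21 was at 0 in each basal-like and luminal class, and Clec3b, Pdgfrl and Fap also in MG1 basal-like cells, and the part of these transcripts in the basal-like values was not tested. Against the epithelium, fibroblast-like cells of the glands had 28 of 31 genes higher, 2 lower (Spp1 and Lama5) and 1 (Col8a1) that did not pass (36.4% of all genes passed), with Col3a1 (8.59 ± 0.71) and Col1a1 (8.23 ± 0.76) the highest.

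**Figure D5:**
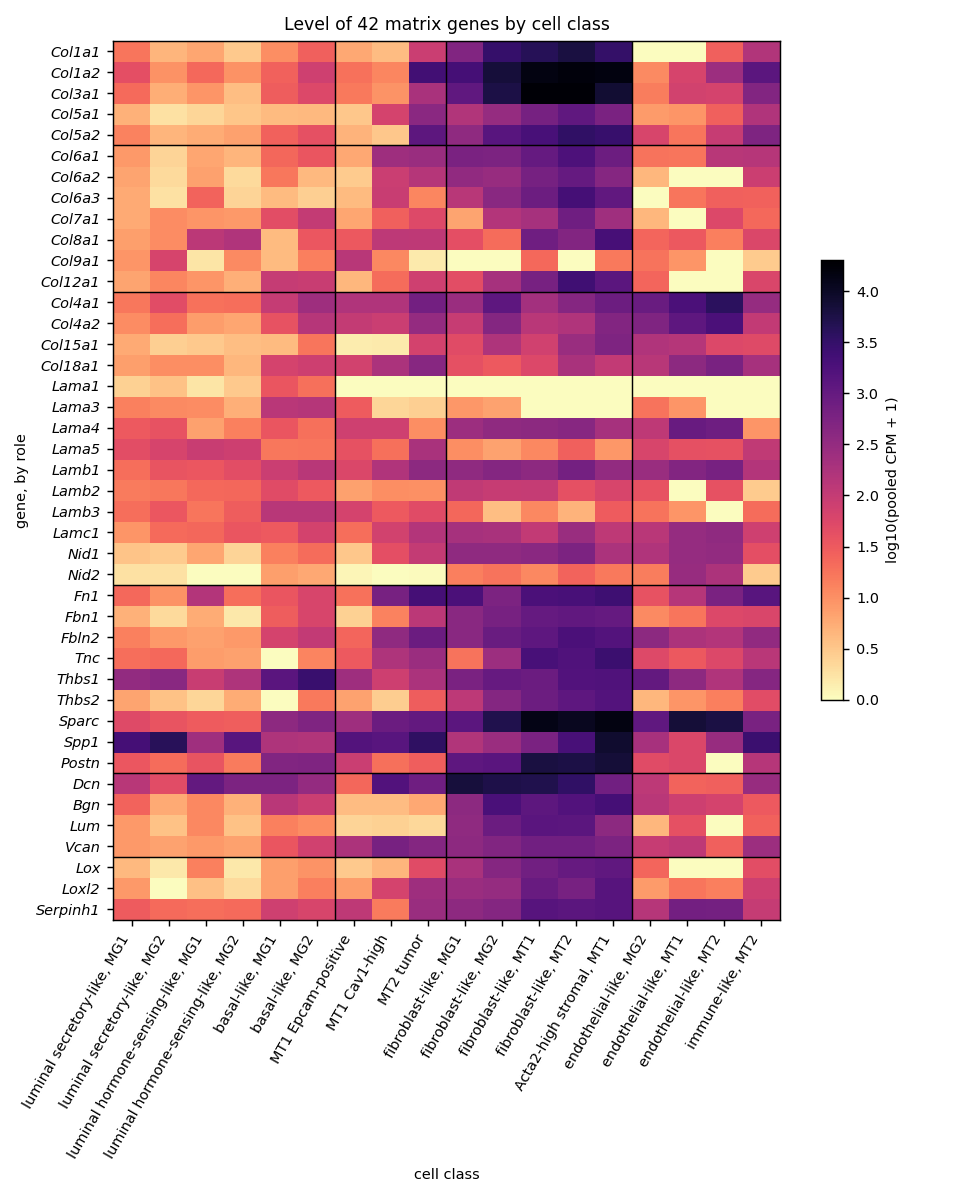
Pooled level of each of the 42 matrix genes (rows, grouped by role) in each cell class (columns), as log10 of CPM plus 1. Fibroblast-like and Acta2-high stromal columns are the darkest for fibrillar collagens, and the MT2 tumor column is dark for Col1a2, Col5a2 and Fn1.

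Whether the 2 tumors changed differently was tested directly. The MT2 change differed from that of the MT1 Epcam-positive cells for 35 of 41 genes, 30 toward higher and 5 toward lower in MT2 (47.7% of all genes), and from that of the Cav1-high cells for 27, 25 higher and 2 lower (32.9%). Col5a2, Col1a2, Col15a1, Lox and Col1a1 stood apart from the Cav1-high cells, by 9.71 ± 0.62, 8.96 ± 0.42, 7.10 ± 1.04, 6.68 ± 0.72 and 6.22 ± 0.80. The differences of Col15a1 (6.31) and Col1a1 (4.83) were not past the threshold without MG1 replicate 1. These comparisons share no gland, but each tumor is 1 animal, so tumor and mouse cannot be told apart. With the mouse as the replicate (1 sum of all tumor cells and 1 of epithelium from each), edgeR called 0 of 42 genes and 0 of 14892 in all (0%), with 11 of 42 and 2294 of all genes at an unadjusted p under 0.05. DESeq2 called 16 of the 42 and 1376 in all in that design. The median of the 42 there was 1.86.

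Related genes outside the 42 were described in the same fits, with lists chosen by function. Of 24 other collagens measured, 13 were tested, of which 4 rose and 5 fell in the MT1 Epcam-positive, 4 and 7 in the Cav1-high and 4 and 8 in the MT2 tumor cells, so the MT2 rise of collagens did not extend to most of this list (median -3.40). Of 53 other glycoproteins and proteoglycans, 41 were tested, of which 5 rose and 18 fell, 17 and 13, and 22 and 11 in the same order. The enzymes and chaperones of collagen synthesis moved mostly upward, with 11 up and 8 down, 20 and 3, and 23 and 2 of 28 tested (medians 0.19, 1.62 and 2.23). Both hyaluronan synthases tested fell in the Epcam-positive cells and rose in MT2. In the MT2 tumor cells Col5a3, a further type V chain, rose from 3.92 to 1779 CPM (8.92 ± 0.32, edgeR adjusted p = 1.8e-18), and Pcolce2, which enhances procollagen processing, from 0.53 to 151 CPM (8.19 ± 0.37, 1.11e-16). Thbs4, a thrombospondin, and Col24a1, a minor fibrillar collagen, had 0 UMIs in MG2 epithelium and 5897 and 759 UMIs in MT2 tumor cells, 144 and 18.5 CPM. Col2a1, the main collagen of cartilage, had 0 UMIs in MG1 epithelium and 265 in the Epcam-positive cells (16.9 CPM), while Dpt, Eln and Has1, genes of dermatopontin, elastin and a hyaluronan synthase, fell there by 5.99, 5.42 and 5.26 on the log2 scale. In the Cav1-high cells Adamts14, a procollagen protease, and Acan, the cartilage proteoglycan aggrecan, had 55 UMIs each against 0 in MG1, and Col14a1 and Eln had 0 against 43 and 24.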

How the data were processed

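Per the labels, cells of mammary glands and tumors were run by Drop-seq, and the authors tagged and aligned reads with Drop-seq tools and STAR to GRCm38.p6 (STAR and the build also in the submitters' processing notes), filtered cells in Seurat and deposited whole-number UMI counts per gene and cell for all libraries together, with at least 800 genes in every cell. From these deposited counts, cells were clustered with scanpy 1.11.5 (3000 variable genes, 30 components, 20 neighbours, Leiden resolution 0.6), with 154 matrix genes left out. A cluster was named when at least 3 markers and 40% of a list were raised, and called a tumor cluster when 90% or more of its cells came from tumor libraries. Within the stroma, 2 sub-clusters led by tumor genes stayed unnamed, by a rule made after seeing the data. Doublets were left in, since the caller tried had marked only 44 cells (0.208%), under what a working caller finds.

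Counts were summed per library and class with at least 5 cells and tested in edgeR 4.0.16 (R 4.3.3, trimmed-mean normalization, filter on low counts, quasi-likelihood test, Benjamini-Hochberg adjustment, threshold 0.05). Gland and tumor were compared in 1 fit over the groups. Classes of the same libraries were compared with the library as a block, the pairing being that the sums come from the same library. CPM are UMIs per 1000000 UMIs of the class in a library. Precision rests on 693333 to 14841414 UMIs per library. Values in every library are printed for genes called with an absolute log2 fold change of 1 or more against the gland, up to 12 per comparison. The scripts were tested on simulated counts. The genes and lists were chosen with earlier results of these data known. Alternatives covered size factors, DESeq2 1.42.0, filters, clustering, doublet scores, gland cells and each library left out. Every column of the table was given to a library and clustered. Cells of no class were left out of the sums. They included the 2 unnamed stromal sub-clusters and the MT1 cells in the luminal hormone-sensing (67), luminal secretory (26) and basal (4) clusters.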

Additional observations from a re-analysis of the deposited data

Results flagged for a closer look

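Sets of 5 library values from the MT1 Epcam-positive and MT1 Cav1-high cells were tested for a value far from the others. Among these 71 sets 3 were flagged, and chance flags about 1 in 20 such sets. All 3 were libraries of the MT1 Cav1-high cells. Col1a2 was 29.4 CPM in MT1 replicate 1, with the nearest library at 12.3. Col7a1 was 61.6 CPM in replicate 2, with the nearest at 24.5, and Serpinh1 was 18 CPM in replicate 5, with the nearest at 13.5.

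The change from gland to tumor differed between the tumors, by a test of the difference itself in edgeR. Against the MT1 Epcam-positive change, the MT2 change differed for 35 of the 41 genes tested, led on the log2 scale by Col9a1 (-10.84), Fn1 (9.53), Col5a2 (8.92), Col6a2 (8.71), Col5a1 (8.32) and Col1a2 (8.31). The difference of Col5a1 was not past the threshold without MG1 replicate 1 (1.82). Against the Cav1-high change it differed for 27, led by Col5a2 (9.71), Col1a2 (8.96), Col9a1 (-7.19), Col15a1 (7.10), Lox (6.68) and Col1a1 (6.22). Those of Col15a1 (6.31) and Col1a1 (4.83) were not past it without that library.

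In MG2, 49 gland cells fell in tumor clusters and were in no comparison with the gland. Of the 49, 44 lay in the cluster of the MT1 Cav1-high cells, which held 1340 MT1 and 11 MT2 cells. Most thus grouped with tumor cells of the other mouse, for a reason that was not tested. Fn1 was at 1717 pooled CPM in the 49 cells and 17.2 in MG2 epithelium. The other 6 genes flagged there were Tnc (633 against 13.4), Col6a1 (233 against 5.04), Vcan (221 against 11.2), Loxl2 (198 against 1.55), Nid1 (164 against 3.10) and Col18a1 (137 against 12.3). The Fn1 UMIs of the 49 cells were 56.9% of all in MG2.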

How the results depend on the processing

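Of all values recomputed under an alternative, 7395 kept their direction and side of the threshold, 200 lost the threshold, 110 newly passed it and 11 turned direction. The number of matrix genes called moved by over 1.5 times in 3 places. For the MT1 Epcam-positive cells against MG1 it ranged from 19 to 31 when 1 library was left out, 19 without MG1 replicate 1. For MT2 tumor against endothelial-like cells it ranged from 12 to 22, 12 without MT2 replicate 3. With the mouse as replicate DESeq2 gave 16 in place of 0. Without the replicate block the within-tumor and within-gland counts stayed close, for example 22 against 24 for Cav1-high against Epcam-positive cells and 33 against 34 for MT2 tumor against fibroblast-like cells, and no count moved by over 1.5 times.

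With gland luminal cells alone, an alternative added after seeing the data, Thbs1 in the MT1 Epcam-positive cells became 0.41, and Bgn and Postn in MT2 became 0.32 and 0.77. With 1 library left out, the MT2 change minus the Cav1-high change of Col5a1 ranged from -2.96 to 3.82 and of Postn from -0.16 to 1.68, each lowest without MG1 replicate 1. With the unnamed stromal sub-clusters kept, also added after seeing the data, Cav1-high against endothelial-like cells gave Col1a1 -6.25, Lox -3.61, Col12a1 -1.61, Col8a1 -0.76 and Col6a3 -0.091. Lum there ranged from -5.11 to 3.12 with 1 library left out, the highest without MT1 replicate 1. The cause was not tested.

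Counts over all genes moved most without a low-count filter, to 7020 (from 850) for Cav1-high against Epcam-positive cells, 2014 (568) and 1519 (514) for Epcam-positive and Cav1-high against fibroblast-like cells, 2189 (571) for Cav1-high against endothelial-like cells, 3422 (2277) for MT2 tumor against fibroblast-like cells, 2598 (1704) for basal against luminal cells and 2747 (1262) for gland fibroblast-like cells against epithelium, since more genes were then tested. With at least 20 cells per class and library, the first became 5622 and the last 2130. Without MT2 replicate 3 they were 1264 (2277) against fibroblast-like and 339 (929) against endothelial-like cells, 360 without replicate 1. Without MG2 replicate 1 or 2, basal against luminal cells gave 986 or 1052 (1704). With the sub-clusters kept, Cav1-high against endothelial-like cells gave 916 (571). Shares of cells depended on depth: 298 of 378 fell outside the interval when cells were not thinned. Small classes limit the depth of their sums.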
